A study of Homo sapiens with 9 samples.

Results

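The thioredoxins and peroxiredoxins described here are 10 genes, taken by name from the 60671 genes measured: the thioredoxins TXN and TXN2, the thioredoxin-like TXNL1, the reductase TXNRD2 and the 6 peroxiredoxins PRDX1 to PRDX6. Polyadenylated RNA was sequenced from AC16, a human line derived by fusing ventricular heart cells with transformed fibroblasts. There were 3 groups with 3 libraries each: AC16 cells in high glucose with chrysin (a plant flavonoid), cells in high glucose, and cells in low glucose. The sources used here state no glucose concentration, chrysin dose, exposure time or vehicle control. The labels do not say whether the libraries of a group came from separate cultures, so every p-value here rests on a spread between libraries that may be only technical. All 10 genes passed the filter on low values and were among the 16996 genes tested.

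Thioredoxins are small proteins that reduce disulfide bonds in other proteins through a pair of cysteines, and they are themselves reduced by thioredoxin reductases at the expense of NADPH. Peroxiredoxins are abundant peroxidases in which a reactive cysteine attacks hydrogen peroxide or an organic peroxide, and most of them are then reduced by thioredoxin. In heart muscle the mitochondrial pair TXN2 and TXNRD2 and the mitochondrial peroxidase PRDX3 handle peroxide made by the respiratory chain, while PRDX6 is reduced through glutathione and also acts on phospholipids.

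The coding sequences around the reactive cysteines are shown because they are the feature that the family shares, and because they show where its branches part. They come from GENCODE 29 on hg38 and are written in the sense of the gene. In the thioredoxins the capitals mark both cysteine codons of the cysteine-glycine-proline-cysteine stretch. The first of these is codon 32 in TXN, 90 in TXN2 and 34 in TXNL1. The bases of TXN2 and of TXNL1 span an intron, so their coordinates cover it.
TXN (chr9:110251376-110251399, minus strand): acgtggTGTgggcctTGCaaaatg
TXN2 (chr22:36476835-36480576, minus strand): cagtggTGTggacccTGCaagatc
TXNL1 (chr18:56626439-56638347, minus strand): agagggTGTgggccaTGTttgagg

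TXNRD2 carries near its end an in-frame TGA, in capitals, which is read as selenocysteine. It is codon 523 of 524.
TXNRD2 (chr22:19877108-19877122, minus strand): acaggctgcTGAggg

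In the peroxiredoxins the capitals mark the codon of the reactive cysteine, which follows a phenylalanine codon, a threonine codon and 2 further codons. It is codon 52 in PRDX1, 51 in PRDX2, 108 in PRDX3, 124 in PRDX4, 100 in PRDX5 and 47 in PRDX6. The windows of PRDX3 and PRDX4 span an intron. PRDX1 to PRDX4 have a valine codon before the cysteine and a proline codon after it, whereas PRDX5 has glycine and serine codons there and PRDX6 has valine and threonine codons.
PRDX1 (chr1:45515752-45515775, minus strand): gacttcacctttgtgTGCcccacg
PRDX2 (chr19:12801014-12801037, minus strand): gacttcacttttgtgTGCcccacc
PRDX3 (chr10:119173854-119174455, minus strand): gatttcacctttgtgTGTcctaca
PRDX4 (chrX:23671642-23675008, plus strand): gatttcacatttgtgTGTccaact
PRDX5 (chr11:64319845-64319868, plus strand): gccttcacccctggaTGTtccaag
PRDX6 (chr1:173481354-173481377, plus strand): gactttaccccagtgTGCaccaca

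Values are FPKM, a fragment count divided by transcript length and library size, which lets levels of different genes be set side by side. Reads recovered from the FPKM values numbered 18171842 to 23024300 per library, and the 10 genes had between 567 reads (the lowest TXNRD2 library) and 9762 reads (the highest PRDX1 library). High glucose library 1 stood apart from the other libraries of its group (mean chi-square per gene 28.1 and 31.5, against 4.82 to 7.44 for the other pairs of replicates), and it held the highest value of its group for 9 of the 10 genes. AC16 had little of the cardiomyocyte programme: 2 of 14 cardiomyocyte markers, NPPB and GATA4, reached a group mean of 0.5 FPKM, and MYL2, PLN and NKX2-5 were at 0 in all 9 libraries. All 10 fibroblast markers passed that level, with summed FPKM of 6945 to 7102 in high glucose with chrysin, 9894 to 10301 in high glucose and 8578 to 8843 in low glucose. COL1A1 made up most of the difference between high glucose and each other group, with means of 2899 FPKM with chrysin, 5138 in high glucose and 3707 in low glucose. THY1 (268 FPKM with chrysin, 264 in high glucose and 207 in low glucose) and S100A4 had their highest mean with chrysin, and COL3A1, VIM, PDGFRB and FN1 had a lower mean in high than in low glucose. Summed cardiomyocyte markers were 19.1 to 20.8 FPKM with chrysin, 22.3 to 24.6 in high glucose and 28.0 to 28.99 FPKM in low glucose. NPPB alone carried this order, with means of 10.1 FPKM with chrysin, 13.2 in high glucose and 19.02 in low glucose, whereas GATA4 had 8.998 FPKM with chrysin, 9.41 in high glucose and 8.71 in low glucose. Summed epithelial markers, 4 of 5 above the level, were 235 to 246 FPKM with chrysin, 335 to 365 in high glucose and 304 to 319 in low glucose. KRT18 and KRT8 carried this order, with KRT18 means of 177 FPKM with chrysin, 264 in high glucose and 232 in low glucose. EPCAM, KRT19 and CDH1 instead had their highest mean in low glucose. Only TEK of 5 endothelial markers and PTPRC and CD14 of 5 immune markers passed, and CD3E was at 0. The endothelial sum was 0.921 to 1.46 FPKM with chrysin, 1.59 to 2.09 in high glucose and 1.57 to 2.06 in low glucose. The immune sum was 2.61 to 2.83 FPKM with chrysin, 4.76 to 4.96 in high glucose and 2.79 to 3.28 in low glucose, and the mean of CD14 was 1.94 FPKM with chrysin, 3.91 in high glucose and 2.22 in low glucose. The part of these shifts in the results below was not tested, and in such bulk RNA fewer cells of a type and less RNA per cell cannot be told apart.

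PRDX1, the main cytosolic peroxiredoxin, was the most abundant of the 10 genes in every library, followed by TXN, the cytosolic thioredoxin, and PRDX6. The order of the overall means went on with PRDX5, PRDX3, TXN2, PRDX4, PRDX2, TXNL1 and TXNRD2. PRDX1 ranked above 99.1% of the tested genes and TXNRD2 above 67.2%. Neighbours in this order kept their order in all 9 libraries for 7 of the 9 steps. PRDX5 was above PRDX3 in the 6 libraries without chrysin and below it in all 3 libraries with chrysin. TXN2 was above PRDX4 in the 3 chrysin libraries and below it within each of the other 6. The ranges of these 2 genes overlapped in high glucose but not in low glucose.

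**Figure D1:**
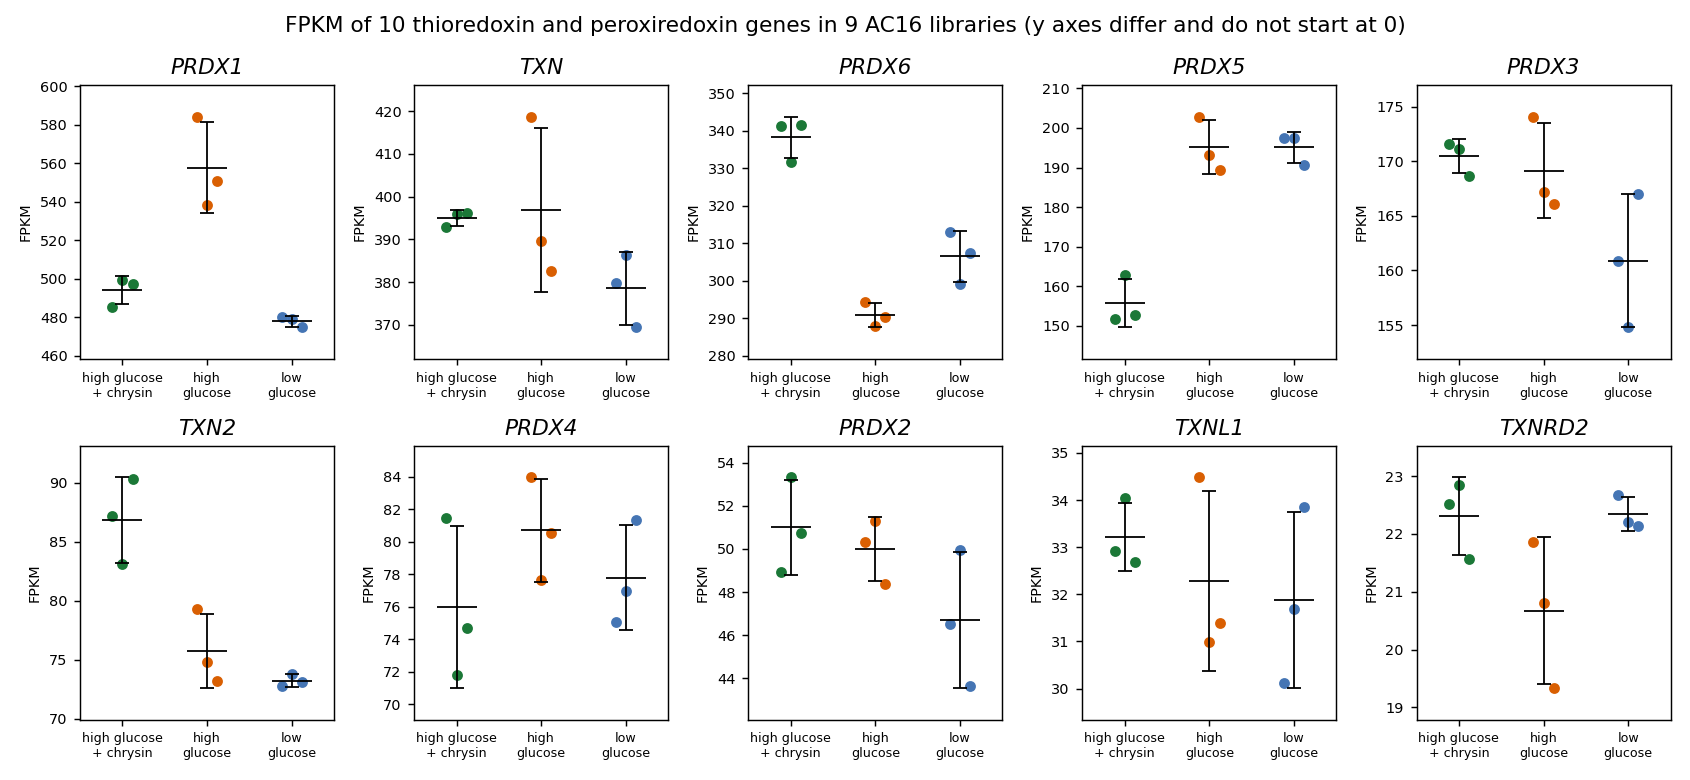
FPKM of the 10 genes in each of the 9 libraries, on a separate axis for each gene, with libraries 1 to 3 of a group from left to right and bars for the group mean ± SD (n = 3). PRDX5 lies at 152 to 163 FPKM in high glucose with chrysin, below its 189 to 203 FPKM in high glucose and 191 to 197 FPKM in low glucose, while PRDX6 and TXN2 lie highest with chrysin and PRDX1 lies highest in high glucose alone.

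Chrysin added to high glucose was the first comparison, of the 3 high glucose libraries with chrysin against the 3 without. The family did not move one way: PRDX6 and TXN2 rose, PRDX5 and PRDX1 fell, and the other 6 genes did not pass the test. These 4 of 10 calls stand beside 45.8% of all 16996 genes called in the same comparison (24.9% higher and 20.9% lower), so the share of the family is near that of all genes. The same 4 genes, 2 higher and 2 lower, had groups that did not overlap, beside 54.3% of all genes (29.8% higher and 24.5% lower). The median log2 fold change was 0.02 over the 10 genes and 0.03 over all genes.

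PRDX5, a peroxidase found in mitochondria, peroxisomes and cytosol, had 152, 163 and 153 FPKM in high glucose with chrysin, against 203, 193 and 189 FPKM in high glucose. Every chrysin library lay below every library without it. The fall was 0.32 on the log2(FPKM + 0.5) scale, on which all fold changes here are given (log2 fold change -0.32, SE 0.04, limma adjusted p = 3.39e-05), or 0.80-fold.

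PRDX6, which reduces phospholipid hydroperoxides, had 341, 332 and 342 FPKM in high glucose with chrysin, against 294, 288 and 290.3 FPKM in high glucose. The groups did not overlap, with all chrysin libraries higher. The log2 fold change was 0.22 (SE 0.03, limma adjusted p = 4.65e-05), a 1.16-fold rise.

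TXN2, the mitochondrial thioredoxin, had 87.2, 83.1 and 90.3 FPKM in high glucose with chrysin, against 79.3, 74.8 and 73.2 FPKM in high glucose. The lowest chrysin library was above the highest library without chrysin. The log2 fold change was 0.20 (SE 0.04, limma adjusted p = 0.00201). The share of reads from genes encoded in mitochondrial DNA moved with it, at 3.80% to 3.89% with chrysin and 2.80% to 3.04% in high glucose, and the part of this in the TXN2 value was not tested. TXNRD2, its reductase, had 22.5, 22.8 and 21.6 FPKM with chrysin against 21.9, 20.8 and 19.3 FPKM in high glucose. These groups overlapped, and the log2 fold change of 0.11 did not pass the test (95% interval -0.00 to 0.22, limma adjusted p = 0.104).

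PRDX1, which reduces hydrogen peroxide in the cytosol, had 486, 499 and 497 FPKM in high glucose with chrysin, against 584, 538 and 551 FPKM in high glucose. The groups did not overlap. It fell by 0.17 on the log2 scale (SE 0.03, limma adjusted p = 0.000721), and by 0.14 (adjusted p = 0.000456) without high glucose library 1, the highest. Over the 18 alternative settings the adjusted p was 5.35e-06 to 0.00493. PRDX1 shares 379 of its 1522 exonic bases with MMACHC on the opposite strand, and the sources used here do not say whether counting used the strand. MMACHC had 295 to 437 reads per library, against 6857 to 9762 reads for PRDX1.

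TXN was at nearly the same level in both groups, with 393, 396 and 396 FPKM in high glucose with chrysin and 419, 389.6 and 383 FPKM in high glucose. The chrysin libraries lay inside the range of the others, and the log2 fold change was -0.01 (95% interval -0.08 to 0.07). PRDX3, the mitochondrial peroxidase that TXN2 reduces, had a log2 fold change of 0.01 (95% interval -0.06 to 0.08) at 170.4 ± 1.55 FPKM with chrysin and 169 ± 4.33 FPKM in high glucose (SD, n = 3). PRDX2, the second cytosolic peroxidase, had a log2 fold change of 0.03 (-0.09 to 0.14) and TXNL1, a thioredoxin-like protein bound to the proteasome, one of 0.04 (-0.08 to 0.16). PRDX4, the peroxidase of the endoplasmic reticulum, had 81.5, 71.8 and 74.7 FPKM with chrysin against 84.0, 77.6 and 80.5 FPKM in high glucose, a log2 fold change of -0.09 (-0.20 to 0.02, limma adjusted p = 0.184). After each library was corrected for GC content and gene length, 7 of the 10 genes were called in place of 4: TXN (-0.09, adjusted p = 0.0230) and PRDX4 (-0.15, 0.0396) fell and TXNRD2 (0.13, 0.0261) rose beside the same 4. Left out in turn, chrysin library 1 added a call of PRDX4 (-0.14, 0.0391) and high glucose library 1 one of TXNRD2 (0.15, 0.0316). Over all 18 alternatives the adjusted p was 0.0230 to 0.971 for TXN, 0.0391 to 0.5 for PRDX4 and 0.0261 to 0.332 for TXNRD2.

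**Figure D2:**
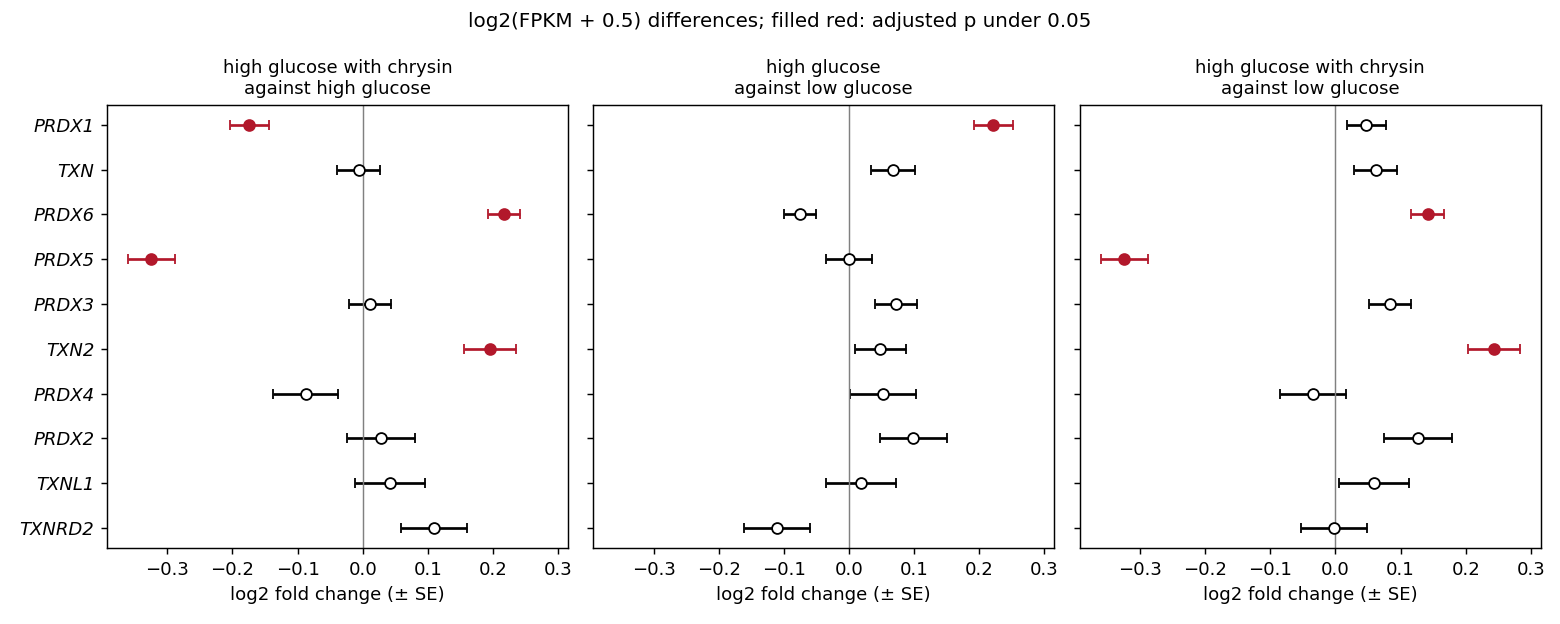
Log2 fold change ± SE of each gene in the 3 comparisons, from 1 limma fit of all 9 libraries on log2(FPKM + 0.5), with filled red points for an adjusted p under 0.05. PRDX5 stands at -0.32 and PRDX6 and TXN2 at 0.22 and 0.20 with chrysin against high glucose, PRDX1 stands alone among called genes at 0.22 in high against low glucose, and TXN stays within 0.07 of 0 in all 3.

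High against low glucose asked what the glucose level changed without chrysin. PRDX1 was the only one of the 10 genes that passed the test, beside 23.5% of all tested genes (14.6% higher and 8.91% lower). Groups did not overlap for 3 of the 10, PRDX1 above and PRDX6 and TXNRD2 below, beside 37.9% of all genes (22.5% higher and 15.4% lower). The median log2 fold change was 0.05 over the 10 genes and 0.02 over all genes. PRDX1 had 584, 538 and 551 FPKM in high glucose, against 480.3, 479 and 475 FPKM in low glucose, and the groups did not overlap. This was a 1.17-fold rise (log2 fold change 0.22, SE 0.03, limma adjusted p = 0.000474), and the log2 fold change was 0.19 (adjusted p = 0.000311) without high glucose library 1. Over the alternatives the adjusted p was 7.04e-06 to 0.00715.

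PRDX6 missed the threshold, with 294, 288 and 290.3 FPKM in high glucose and 313, 299 and 307 FPKM in low glucose. All high glucose libraries were below all low glucose libraries. The log2 fold change was -0.08 (95% interval -0.13 to -0.02, limma adjusted p = 0.0513). It passed without high glucose library 1 (-0.08, adjusted p = 0.0384) and without low glucose library 2 (-0.09, 0.0433). With the GC and length correction 3 of the 10 genes were called, PRDX1, PRDX6 (-0.09, 0.0134) and TXNRD2 (-0.20, 0.00513). Over all 18 alternatives the adjusted p was 0.0134 to 0.171 for PRDX6 and 0.00513 to 0.397 for TXNRD2.

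PRDX5 had almost the same mean in both groups, 195 ± 6.92 FPKM in high glucose and 195 ± 3.93 FPKM in low glucose (SD, n = 3), and its log2 fold change of 0.00 had a 95% interval of -0.08 to 0.08. TXN2 had 79.3, 74.8 and 73.2 FPKM in high glucose and 72.8, 73.8 and 73.1 FPKM in low glucose, which overlapped (0.05, interval -0.04 to 0.14). TXNRD2 had 21.9, 20.8 and 19.3 FPKM in high glucose, all below the 22.7, 22.2 and 22.1 FPKM of low glucose, without passing the test (-0.11, limma adjusted p = 0.145). The log2 fold changes of TXN, PRDX2, PRDX3, PRDX4 and TXNL1 lay between 0.02 and 0.10, with limma adjusted p from 0.137 to 0.853.

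High glucose with chrysin against low glucose shares its libraries with both comparisons above, so its values are not separate evidence. PRDX6 and TXN2 rose and PRDX5 fell, 3 of 10 genes beside 51% of all tested genes (29.7% higher and 21.3% lower). Groups did not overlap for 6 of the 10, with PRDX1, PRDX3, PRDX6, TXN and TXN2 above and PRDX5 below, beside 60% of all genes (34.6% higher and 25.4% lower). The log2 fold changes were 0.14 for PRDX6 (SE 0.03, limma adjusted p = 0.000732), 0.24 for TXN2 (SE 0.04, 0.000388) and -0.32 for PRDX5 (SE 0.04, 2.57e-05). PRDX1 was at 494 ± 7.37 FPKM with chrysin and 478 ± 2.88 FPKM in low glucose (SD, n = 3), a log2 fold change of 0.05 (95% interval -0.02 to 0.11, adjusted p = 0.21).

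PRDX2 and PRDX3 came close to the threshold in this comparison. PRDX3 had 172, 171 and 169 FPKM in high glucose with chrysin, against 161, 155 and 167 FPKM in low glucose. The groups did not overlap, and the log2 fold change of 0.08 had a limma adjusted p of 0.05004. PRDX2 had 48.9, 53.3 and 50.7 FPKM with chrysin against 46.5, 49.95 and 43.6 FPKM in low glucose, with overlap (0.13, adjusted p = 0.0621). Without high glucose library 1, which enters only through the shared spread, PRDX3 (0.0308) and TXN (0.06, adjusted p = 0.0299) passed and 5 genes were called. PRDX3 passed without low glucose library 3 (0.11, 0.0206), and PRDX2 without chrysin library 1 (0.16, 0.0493) or low glucose library 2 (0.18, 0.0164). Over all 18 alternatives the adjusted p was 0.0164 to 0.286 for PRDX2, 0.0206 to 0.538 for PRDX3 and 0.0299 to 0.937 for TXN.

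The 8 calls described above, over the 3 comparisons, each held in all 18 alternative settings, with a largest adjusted p of 0.0175.

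Summed over the 6 peroxiredoxins, the group means lay closer together, taken as ratios to one another, than those of PRDX1, PRDX5 or PRDX6 alone. The summed FPKM was 1281, 1290.1 and 1286 in high glucose with chrysin, 1389.7, 1316 and 1326 in high glucose, and 1273, 1258 and 1265 in low glucose. High glucose was highest in all 3 of its libraries, with library 1 well above its fellows. The order of the other groups turned round with median-of-ratios scaling (1252 FPKM with chrysin and 1282 FPKM in low glucose). The make-up of the sum differed between groups. PRDX1 gave 38.4 ± 0.445% of it with chrysin, 41.5 ± 0.562% in high glucose and 37.8 ± 0.284% in low glucose (SD, n = 3). PRDX6 gave 26.3 ± 0.517% with chrysin, 21.7 ± 0.416% in high glucose and 24.2 ± 0.397% in low glucose. PRDX5 gave 12.1 ± 0.436% with chrysin, 14.5 ± 0.209% in high glucose and 15.4 ± 0.324% in low glucose. The ratio of PRDX1 to PRDX6 FPKM was 1.46 ± 0.0413 with chrysin, 1.92 ± 0.0604 in high glucose and 1.56 ± 0.0357 in low glucose. PRDX5 over PRDX3, both mitochondrial at least in part, was 0.885, 0.952 and 0.905 with chrysin, against 1.17, 1.16 and 1.14 in high glucose and 1.23, 1.28 and 1.14 in low glucose. PRDX2, PRDX3 and PRDX4 each kept a mean share within 1 percentage point across the groups, at 3.69% to 3.97%, 12.6% to 13.3% and 5.91% to 6.15%.

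**Figure D3:**
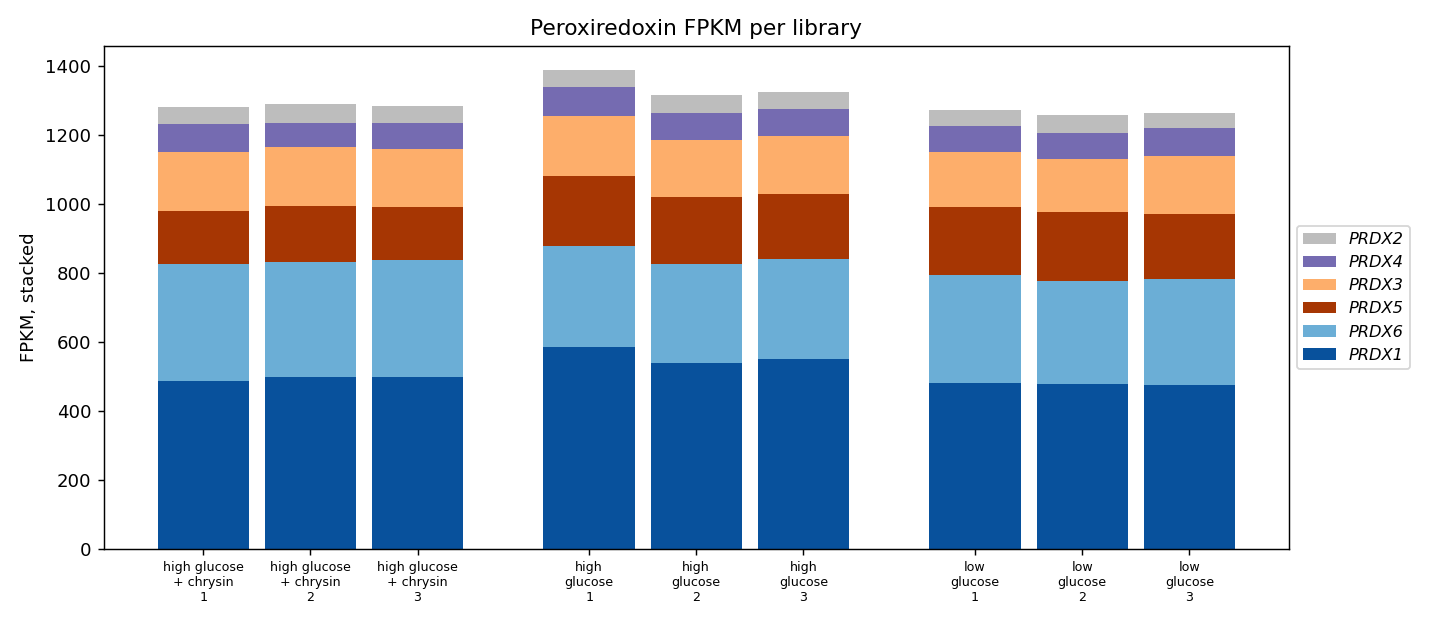
Stacked FPKM of the 6 peroxiredoxins in each library, with 3 bars per group and 1 colour per gene. The bars reach 1281 to 1290.1 FPKM in high glucose with chrysin, 1316 to 1389.7 in high glucose and 1258 to 1273 in low glucose, and the PRDX6 segment is tallest and the PRDX5 segment shortest with chrysin.

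With chrysin, TXNRD1 and TXNIP had larger log2 fold changes than either thioredoxin. TXNRD1, the cytosolic reductase of TXN, had 504, 509.9 and 496 FPKM in high glucose with chrysin, 363, 383 and 383 FPKM in high glucose, and 375, 368 and 376 FPKM in low glucose. Chrysin libraries were above all others, while high and low glucose overlapped. The log2 fold change with chrysin was 0.42 against high glucose (limma adjusted p = 7.57e-07) and 0.43 against low glucose (3.97e-07), and that of high against low glucose was 0.01 (0.789). With TXN nearly level, TXN over TXNRD1 was 0.785 ± 0.0125 with chrysin, 1.06 ± 0.0833 in high glucose and 1.01 ± 0.0327 in low glucose (SD, n = 3).

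TXNIP binds reduced thioredoxin and is a glucose-responsive gene. It had 16.4, 15.3 and 17.0 FPKM in high glucose with chrysin, 79.2, 78.2 and 80.0 FPKM in high glucose, and 5.92, 5.72 and 6.07 FPKM in low glucose. The 3 groups were fully separate. The log2 fold change was -2.25 with chrysin against high glucose (limma adjusted p = 1.18e-09), 3.64 in high against low glucose (8.84e-12) and 1.39 with chrysin against low glucose (7.32e-09). TXNIP stood at 4.12 ± 0.221% of the TXN FPKM with chrysin, 19.98 ± 1.01% in high glucose and 1.56 ± 0.0808% in low glucose. SRXN1, which restores overoxidised peroxiredoxins, was below the filter and untested, with at most 0.464 FPKM and 10 to 26 reads per library.

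**Figure D4:**
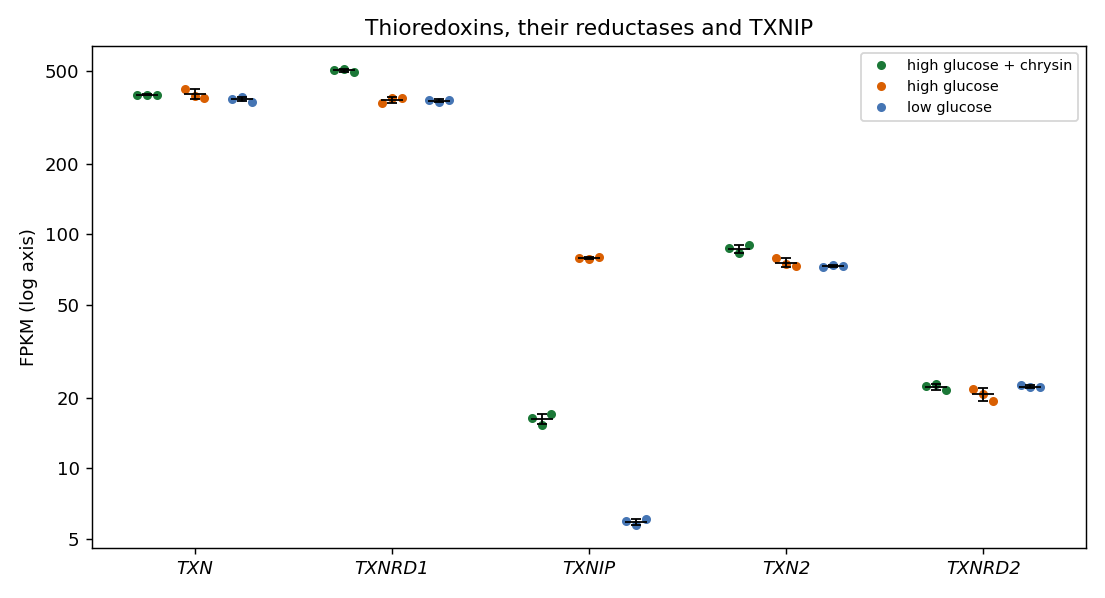
FPKM on a log axis of both thioredoxins, both reductases and TXNIP, with points for libraries and bars for the group mean ± SD (n = 3). TXNIP averages 16.3 FPKM with chrysin, 79.2 in high glucose and 5.90 in low glucose. TXNRD1 is higher with chrysin, averaging 503 FPKM, and the group means of TXN lie between 378 and 397 FPKM.

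Of the 49 genes on a wider list of thiol and peroxide partners (reductases, glutaredoxins, protein disulfide isomerases, glutathione peroxidases, clients of thioredoxin), 48 were tested. With chrysin against high glucose 7 rose, 17 fell and 24 did not pass, which is 14.6% higher and 35.4% lower beside 24.9% and 20.9% of all genes, with a median log2 fold change of -0.11 beside 0.03 over all genes. MSRB3, a methionine sulfoxide reductase, rose by 0.56 (limma adjusted p = 3.49e-06), NNT, which makes NADPH in mitochondria, by 0.43 (1.14e-05), and TMX2, a membrane-bound member of the thioredoxin superfamily, by 0.40 (4.42e-06). RRM2, the small subunit of ribonucleotide reductase, fell by 0.72 (limma adjusted p = 5.5e-09), SOD2, the mitochondrial superoxide dismutase, by 0.41 (4.97e-06), and GPX1, a glutathione peroxidase, by 0.38 (5.16e-06).

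In high against low glucose 9 of the 48 partners rose, 10 fell and 29 did not pass, which is 18.8% higher and 20.8% lower beside 14.6% and 8.91% of all genes, with a median of 0.01 beside 0.02 over all genes. PDIA4, PDIA3 and PDIA6, protein disulfide isomerases of the endoplasmic reticulum, fell. PDIA4 had 203 ± 3.40 FPKM in high glucose and 408 ± 14.5 FPKM in low glucose (log2 fold change -1.001, limma adjusted p = 6.08e-09), PDIA3 had a log2 fold change of -0.42 (3.49e-07) and PDIA6 one of -0.44 (9.98e-07). SESN2, a stress-induced sestrin, had 8.90 ± 0.419 FPKM in high glucose and 19.1 ± 1.002 FPKM in low glucose (-1.06, adjusted p = 2.3e-06). PRDX4, which works in the same compartment as these isomerases, had 80.7 ± 3.18 FPKM in high glucose and 77.8 ± 3.24 FPKM in low glucose, which did not pass the test. RRM2 (0.19, limma adjusted p = 0.000233), CLIC1, a chloride channel protein with a glutaredoxin-like fold (0.16, 0.00143), and GPX8, a peroxidase of the endoplasmic reticulum (0.14, 0.0099), rose.

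In high glucose with chrysin against low glucose 8 partners rose, 26 fell and 14 did not pass, which is 16.7% higher and 54.2% lower beside 29.7% and 21.3% of all genes, with a median of -0.13 beside 0.05 over all genes. MSRB3 (0.69, limma adjusted p = 5.87e-07) and TMX2 (0.42, 2.37e-06) were among those that rose. PDIA4 (-1.06, limma adjusted p = 1.5e-09), SESN2 (-1.21, 1.49e-07), PDIA3 (-0.58, 7.07e-09) and RRM2 (-0.54, 2.54e-08) fell.

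PRDX5 had the widest span of group means of the 10 genes, 0.32 on the log2 scale, and its promoter is shown for that reason. The 250 bases before its first listed start, from RefSeq on GRCh38.p14, are chr11:64317871-64318120 on the plus strand, with matches to the GC box letters GGGCGG in capitals, both on the reverse strand.
PRDX5: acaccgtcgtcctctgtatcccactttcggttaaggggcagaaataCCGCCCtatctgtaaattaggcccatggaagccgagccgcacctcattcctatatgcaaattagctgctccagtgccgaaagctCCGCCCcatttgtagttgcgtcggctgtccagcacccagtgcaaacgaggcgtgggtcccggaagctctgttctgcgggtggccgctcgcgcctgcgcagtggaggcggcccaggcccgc

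Promoters of 7 of the 10 genes were found in that table, 10 promoters in all. PRDX1, PRDX6 and TXN2 had no promoter there, so they were not searched for any of the motifs below. The GC box was searched on both strands together with the core of the antioxidant response element (TGACNNNGC), TATAAA and CCAAT. A GC box was present in 8 of the 10 promoters and in at least 1 promoter of each of the 7 genes, beside 42.6% of 35116 promoters. The response element core occurred in the TXNL1 promoter alone, beside 10.9% of all promoters, TATAAA in 2 promoters, of TXN and TXNRD2, beside 10.7%, and CCAAT in that of TXNL1, beside 32.0%. In the PRDX5 window shown, only the GC box matched. These are matches of letters in a short window and show no binding.

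Of 10028 genes averaging 5 FPKM or more, those whose log2 values followed PRDX5 most closely over the 9 libraries included RBPMS, MKNK2 and DNPEP, each with a Pearson correlation of 0.99. These libraries share 3 groups, so the correlations describe mainly the difference between groups. RBPMS, an RNA-binding protein, had 39.0, 42.1 and 41.0 FPKM in high glucose with chrysin, 59.5, 57.2 and 55.6 FPKM in high glucose, and 57.5, 60.5 and 56.5 FPKM in low glucose. As for PRDX5, the chrysin libraries were below all others, and high and low glucose overlapped.

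The annotation places other genes over some of the 10. PRDX2 lies inside HOOK2 on the same strand with no shared exonic base and opposite the antisense AC018761.2, and TXNL1 meets WDR7 on the opposite strand. Their exonic overlap is 296 of 2093 bases for PRDX2 and 234 of 11298 for TXNL1. AC018761.2 had 2 to 21 reads per library. The table also lists 19 pseudogene copies of the 10 genes, of which 11 were at 0 in every library and none exceeded 7 reads, and reads shared with such copies may be split or lost in counting.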

How the data were processed

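The authors deposited FPKM for 60671 genes in 9 libraries; no header names the unit, which was read from the values. The submitters' processing notes list the build hg38 with HTSeq 0.13.5, StringTie 2.2.1, HISAT2 2.2.1 and fastp 0.23.4; annotation release and strand setting: not given in the sources used here. Libraries were grouped by their treatment labels.

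The main test was limma 3.58.1 (R 4.3.3) with its trend option on log2(FPKM + 0.5), all 9 libraries in 1 fit, over the 16996 genes averaging 0.5 FPKM or more in a group. Contrasts were two-sided and p-values were adjusted by Benjamini and Hochberg over these genes, with calls under 0.05. The test was also run on simulated counts in which every gene and library had the same dispersion. That setting holds no library that stands apart, as high glucose library 1 does, so it does not show the error rate in these data. An exact permutation test of 3 against 3 libraries cannot give a p below 0.1. Each gene's FPKM values stood in whole-number ratios that fix what 1 read is worth, so whole reads were recovered for each of the 28230 genes (100.0%) detected in at least 2 libraries, within 0.002 reads of a whole number. They give the depth and a limma voom alternative.

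The 10 members, the partner and marker lists and the tests were chosen with earlier results of these data known. All 10 members were named. Of the partners, TXNRD1, TXNIP and SRXN1 were named, and the 4 called genes with the smallest p in each direction of each comparison. For PRDX5 the rule named the 4 most correlated genes. Some genes that these rules or the annotation name are not reported here. The settings tried were voom, a replicate block, each library left out, only the groups compared, an adjusted p under 0.01, median-of-ratios scaling, pseudocounts of 0.1 and 1, a filter at 5 FPKM and no filter. A loess correction for GC content and length (span 0.4, GENCODE 29) was added after seeing the data.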

Additional observations from a re-analysis of the deposited data

How the results depend on the processing

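All 8 member calls held in all 18 alternatives, so counts of members moved only by added calls. High against low glucose gave 1 member in the main analysis, 2 with a mean of at least 5 FPKM, 2 with median-of-ratios scaling and 3 with the GC and length correction. Chrysin against high glucose gave 4, and 7 with that correction. Chrysin against low glucose gave 3, and 5 with a mean of at least 5 FPKM or with only the groups compared. With 1 library left out these counts were 1 to 2, 4 to 5 and 3 to 5. Replicate numbers did not pair the libraries: same-numbered libraries had correlations of -0.095 to 0.058 in their deviations. With the replicate block, high against low glucose gave 2 members (PRDX6 passed, adjusted p = 0.0457).

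Changes of sign touched only values that were not called in the main analysis. Median-of-ratios scaling, which moved the median of all genes by -0.03, -0.03 and -0.06 in the 3 comparisons, gave -0.00061 for PRDX2 and -0.017 for PRDX3 with chrysin against high glucose, and -0.010 for PRDX1 with chrysin against low glucose. In high against low glucose it gave -0.010 for TXNL1, -0.029 for PRDX5, -0.017 for TXNRD1, -0.015 for TMX2 and -0.011 for GPX1. The GC and length correction gave -0.017 for PRDX3 against high glucose, -0.027 for PRDX5, -0.0058 for TMX2 and -0.027 for GPX1 in high against low glucose, and -0.030 for TXN and -0.020 for PRDX1 against low glucose. With 1 library left out, the values against high glucose ran from -0.0043 to 0.057 for PRDX2, -0.032 to 0.033 for TXN and -0.0013 to 0.032 for PRDX3. In high against low glucose they ran from -0.030 to 0.061 for TXNL1, -0.028 to 0.021 for PRDX5, -0.014 to 0.035 for GPX1, -0.00034 to 0.037 for TXNRD1 and -0.0095 to 0.040 for TMX2. Against low glucose they ran from -0.086 to 0.0046 for PRDX4 and -0.019 to 0.022 for TXNRD2. The cause was not tested.

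At an adjusted p under 0.01, 2158 genes were called in high against low glucose in place of 4002. Median-of-ratios scaling put the summed peroxiredoxins at 1252 FPKM with chrysin and 1282 FPKM in low glucose, in place of 1285 and 1265, so their order turned round. Each member had at least 567 reads per library, and both this depth and the 3 libraries per group limit the precision.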
